A study of Homo sapiens with 12 samples.

Results

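The keratin genes of this series were described across 4 groups of nascent RNA libraries from the human osteosarcoma line U2OS. The 54 members were the genes of the deposited tables whose symbol is KRT followed by a number and at most 1 letter from A to C, out of 60583 genes. Of these, 26 lie on chromosome 12 and 28 on chromosome 17. The family was chosen by the siINTS11 values of 1 gene, KRT79, which were far higher than its siCtrl values. The siINTS11 values of KRT79 are therefore a description with no test, and KRT79 is left out of every count of changed keratins below.

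Keratins are the intermediate filament proteins of epithelial cells. They assemble as obligate pairs of a type I (acidic) and a type II (basic) chain, and the genes of each type sit side by side in a cluster of their own, with the type I gene KRT18 next to its type II partner KRT8 as the exception. Different epithelia, hair and nail express different pairs, and cells of mesenchymal origin such as osteosarcoma cells rely mainly on vimentin filaments. INTS11 cuts RNA as the catalytic part of Integrator, which acts on nascent transcripts at RNA polymerase II.

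The 4 groups hold 3 libraries each. U2OS cells were transfected with siCtrl or siINTS11, and so were U2OS-AsiSI cells, whose label adds the AsiSI-ER transgene and 1 h of OHT to both siRNA groups. RNA was collected 48 h after transfection and the 4sU-labelled fraction was sequenced (TT-seq, which reads RNA made during a short labelling time). The transgene and the OHT treatment always occur together, so their parts in any difference between the lines cannot be told apart. Nothing in the labels says that the replicates were separate cultures, so p-values measure only the spread between these libraries. The libraries held 20704611 to 38065726 counts in genes. Levels are given as depth-normalised counts (CPM scaled by TMM), and levels of different genes are compared only as CPM per kb of gene span, introns included. INTS11 itself fell in U2OS (log2 fold change -0.42, SE 0.09, edgeR adjusted p = 6.08e-05) but did not pass the threshold in U2OS-AsiSI (-0.13, SE 0.08, edgeR adjusted p = 0.172), so siINTS11 names the libraries by their label throughout. In the siINTS11 comparison in U2OS-AsiSI, 7236 genes were higher and 6657 lower with TMM scaling, and 10550 and 4024 with library totals alone, which moved the median log2 fold change of all genes from 0.03 to 0.22. In U2OS the corresponding numbers were 7140 and 6706 against 10968 and 3799, with a median of 0.02 against 0.22. The keratin changes below are relative to the TMM baseline.

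The promoters of 4 keratins that differ in level and response are shown, 250 bases before to 50 after the RefSeq start (GRCh38.p14). KRT79 and KRT75 were at low levels and higher after siINTS11 in both lines. KRT34 was near-silent and higher after siINTS11 in U2OS-AsiSI. KRT10 was at the expressed level and did not pass the test in either line. No keratin that fell is among them. Each sequence runs 5′ to 3′ along the gene. Capitals mark every match, on either strand, to the TATA box searched as TATAAA, the CCAAT box searched by its name, the GC box searched as GGGCGG and the AP-1 site searched as TGANTCA. No matches overlap in these sequences.
KRT79 (chr12:52834262-52834561, minus strand): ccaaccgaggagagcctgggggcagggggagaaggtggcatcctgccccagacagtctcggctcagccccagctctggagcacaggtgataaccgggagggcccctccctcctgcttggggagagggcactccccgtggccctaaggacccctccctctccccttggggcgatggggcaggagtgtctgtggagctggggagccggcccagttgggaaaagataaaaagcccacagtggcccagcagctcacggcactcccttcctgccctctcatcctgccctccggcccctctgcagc
KRT75 (chr12:52434322-52434621, minus strand): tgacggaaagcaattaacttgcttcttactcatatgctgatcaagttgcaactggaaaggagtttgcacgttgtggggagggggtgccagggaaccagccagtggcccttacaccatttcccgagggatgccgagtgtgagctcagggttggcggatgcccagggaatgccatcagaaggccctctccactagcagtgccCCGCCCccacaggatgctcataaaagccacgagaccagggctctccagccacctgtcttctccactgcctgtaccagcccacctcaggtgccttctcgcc
KRT34 (chr17:41382257-41382556, minus strand): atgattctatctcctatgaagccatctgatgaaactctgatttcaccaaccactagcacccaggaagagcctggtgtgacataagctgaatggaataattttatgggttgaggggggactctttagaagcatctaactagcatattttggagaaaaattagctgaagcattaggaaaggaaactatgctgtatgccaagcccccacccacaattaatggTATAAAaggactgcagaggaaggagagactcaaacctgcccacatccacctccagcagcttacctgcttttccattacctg
KRT10 (chr17:40822565-40822864, minus strand): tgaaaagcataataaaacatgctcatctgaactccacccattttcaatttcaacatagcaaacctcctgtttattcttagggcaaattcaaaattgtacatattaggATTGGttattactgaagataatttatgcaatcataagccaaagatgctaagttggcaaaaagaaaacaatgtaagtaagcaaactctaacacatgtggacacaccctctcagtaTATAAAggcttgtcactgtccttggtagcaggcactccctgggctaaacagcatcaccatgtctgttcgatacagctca
KRT79 held none of the 4 motifs. KRT75 held a GC box on the other strand, with its first base at -50 from the start, and no TATAAA. KRT34 and KRT10 each held a TATA box, at -31 and -29, and KRT10 also held a CCAAT box on the other strand at -143. The RefSeq start of KRT34 lies inside the gene span used in the tables. Among the 38 keratin promoters available, from 34 genes, TATAAA occurred in 21 (55.3%), against 11.5% of 35116 promoters of all genes. CCAAT occurred in 47.4% against 34.6%, and GGGCGG in 15.8% against 45.0%. TGANTCA occurred in 0 of the 38, against 7.71% of all promoters. These matches describe the letters in the window only.

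Most of the family was silent or nearly so. The chromosome 12 cluster runs over 784 kb from KRT80 to KRT18 (hg38, 12:52168996 to 52952906) and the chromosome 17 cluster over 970 kb from KRT222 to KRT17 (17:40654665 to 41624842). All members but KRT7 and KRT18 lie on the minus strand. By the mean level per kb over the 12 libraries, 6 members were expressed (at 1 CPM per kb or more), 5 were low (0.1 to under 1) and 43 were near-silent (under 0.1). The chromosome 12 cluster held 4 expressed, 3 low and 19 near-silent members, and the chromosome 17 cluster 2, 2 and 24. No read was counted in any of the 12 libraries for 20 members, 6 on chromosome 12 and 14 on chromosome 17. Another 17 had reads but never more than 3 counts in a library. In these libraries 3 counts equal 0.0848 to 0.132 CPM, and levels under that range rest on very few reads.

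Expressed keratins sat at both ends of the chromosome 12 cluster. At its start lie KRT80, a type II keratin of differentiating epithelia, at 10 CPM per kb, and, further in, KRT81, a type II hair keratin, at 2.28. At its far end lie KRT8 and KRT18, the pair of simple epithelia, at 1.17 and 7.75. The span of KRT8 is 52768 bases, the longest of the family, and its level per kb is an average over that span. On chromosome 17, KRT17, a keratin of skin appendages and wounded epidermis, reached 5.32 at one edge of the cluster, and KRT10, made in the upper layers of the epidermis, reached 1.05. KRT8 and KRT10 lay just inside the limit of the expressed class and KRT15 (0.741) just outside it. KRT75 (0.123) lay just inside the low class and KRT34 (0.0561) just outside.

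**Figure D1:**
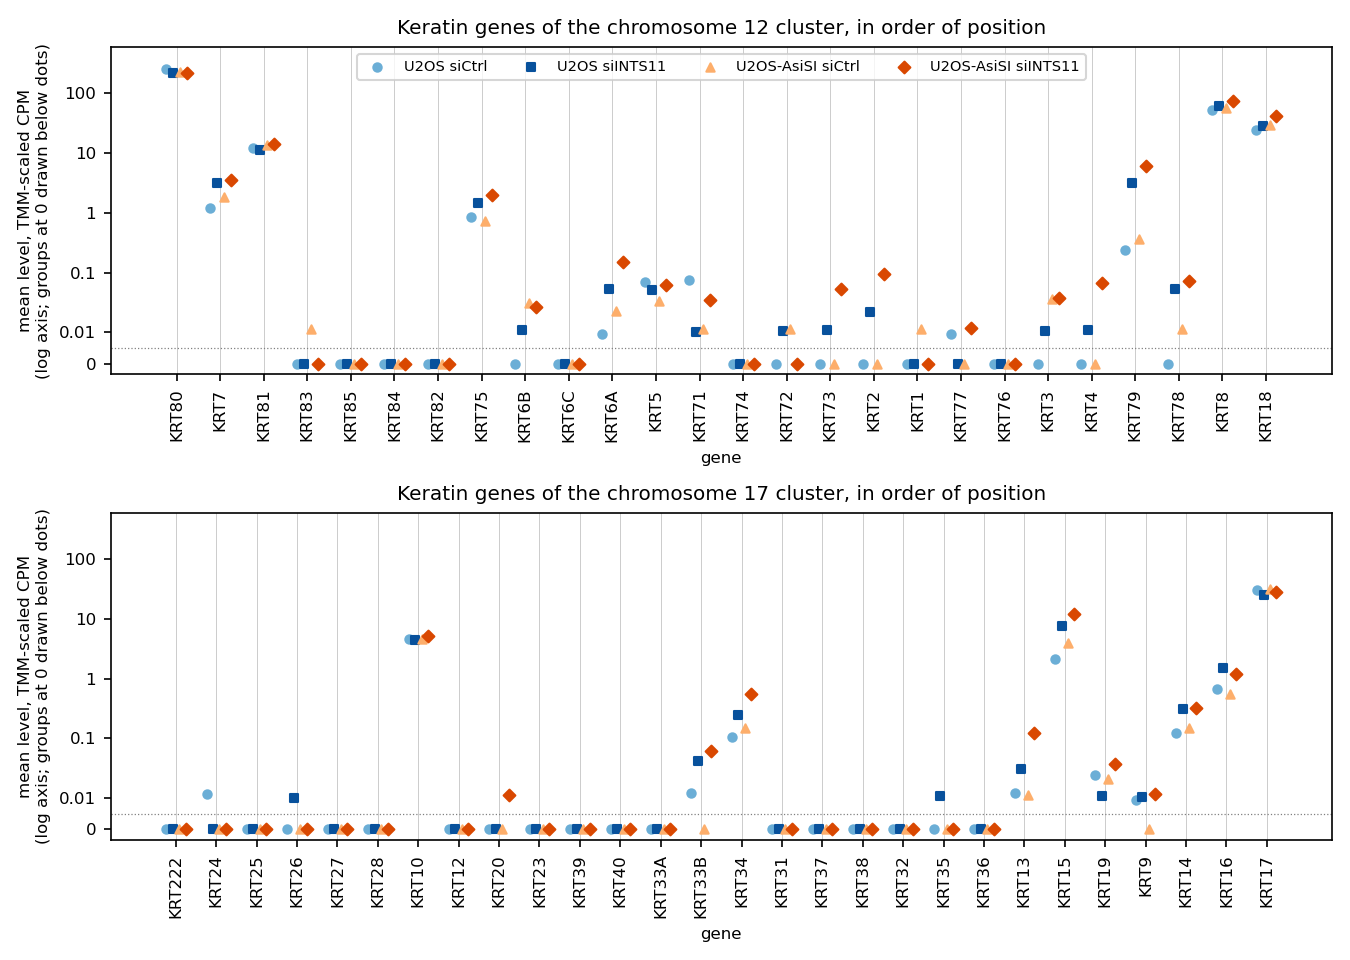
Mean level of each keratin in the 4 groups (TMM-scaled CPM, log axis, n = 3 libraries per group, groups at 0 drawn below the dotted line), with the genes in order of position on chromosome 12 (top) and chromosome 17 (bottom). Long runs of genes at or near 0 separate the few genes with reads in every group, and KRT79 and KRT15 have siINTS11 symbols well above their siCtrl symbols. CPM carries no length term, so heights compare groups within a gene, not genes with each other.

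The classes use all 12 libraries, so a rise after siINTS11 also raises a gene's class. In the siCtrl libraries alone, 3 of the 5 low members lay under 0.1 CPM per kb: KRT79 at 0.0237, KRT75 at 0.0766 and KRT7 at 0.0769. The other two were KRT16 at 0.101 and KRT15 at 0.35. Of all reads counted in keratins, KRT80 took 59.7% to 67.2% in the U2OS libraries and 52.9% to 61.3% in the U2OS-AsiSI libraries. KRT80, KRT8, KRT18 and KRT17 together took 88.4% to 94.4%.

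KRT79, a type II keratin known from the hair canal of the skin, was close to silent in the siCtrl libraries and not in the siINTS11 libraries. In U2OS it had 9, 8 and 5 counts under siCtrl and 100, 91 and 105 under siINTS11. In U2OS-AsiSI it had 9, 8 and 15 counts under siCtrl and 188, 145 and 163 under siINTS11. Every siINTS11 library lay far above every siCtrl library in both lines. The mean level went from 0.243 ± 0.0771 to 3.12 ± 0.205 CPM in U2OS (SD, n = 3; 12.5-fold, 3.64 on the log2 scale) and from 0.368 ± 0.158 to 6.17 ± 0.524 CPM in U2OS-AsiSI (SD, n = 3; 16.9-fold, 4.08). As a share of keratin reads it was 0.0463% to 0.141% in siCtrl libraries and 0.781% to 1.66% in siINTS11 libraries. Per kb it remained low at its highest, 0.478 CPM per kb in U2OS-AsiSI siINTS11.

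The genes around KRT79 (12:52821408 to 52834311, minus strand) were nearly unread. Of the 15 other genes within 100 kb, KRT8 was the only one with a mean of at least 10 counts. The nearest gene upstream on the same strand, KRT78, ends 3492 bases before KRT79 begins and had 0 to 3 counts per library. The nearest downstream, KRT4, lies 7291 bases away and also had 0 to 3. KRT8 lies 62875 bases upstream of KRT79 on the same strand. Only 0.297% of the 50-base words of the KRT79 transcript occur in transcripts of other genes.

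The low keratins other than KRT79 rose in both lines. All 4 were past the threshold in U2OS-AsiSI, where 33.8% of all tested genes at the low level were higher, and all 4 in U2OS, where 34.6% were. Their median log2 fold change was 1.28 in U2OS-AsiSI and 1.24 in U2OS, against -0.01 over all low genes in both lines. The class was set over all 12 libraries, for these 4 and for all genes alike. In the siCtrl libraries alone, KRT7 (0.0769) and KRT75 (0.0766) lay under its limit of 0.1 CPM per kb. Their rises thus helped bring them into the class, so the 4 of 4 is in part fixed by it. In bulk RNA, a change in the number of cells that transcribe a gene and a change in RNA per cell cannot be told apart.

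KRT15 is a type I keratin of basal keratinocytes and hair follicle stem cells. The U2OS siCtrl libraries had 66, 67 and 62 counts against 239, 251 and 237 in siINTS11, and the U2OS-AsiSI siCtrl libraries 99, 123 and 130 against 353, 270 and 364. The groups did not overlap in either line. Its level rose from 2.16 ± 0.256 to 7.66 ± 0.502 CPM in U2OS (SD, n = 3; log2 fold change 1.81, SE 0.12, edgeR adjusted p = 2e-17). In U2OS-AsiSI it rose from 3.99 ± 0.705 to 12.2 ± 0.301 CPM (SD, n = 3; 1.63, SE 0.10, edgeR adjusted p = 6.89e-15). As with KRT79, its neighbours were nearly unread: KRT19, 1087 bases upstream, had 0 to 2 counts per library, and KRT13, 8039 bases downstream, 0 to 4.

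KRT7, a type II keratin of ductal and other simple epithelia, had 32, 44 and 35 counts in U2OS siCtrl against 95, 107 and 103 in siINTS11. In U2OS-AsiSI it had 47, 69 and 46 against 96, 83 and 109. Scaled for depth, each siINTS11 library lay above each siCtrl library of its line. The log2 fold change was 1.37 in U2OS (SE 0.16, edgeR adjusted p = 3.9e-10) and 0.97 in U2OS-AsiSI (SE 0.15, edgeR adjusted p = 7.65e-07). The nearest gene upstream of KRT7 on its strand, LINC00592, ends 8706 bases away, had 303 to 1262 counts per library and rose by 1.44 in both lines. KRT7 also shares 2887 bases of its span on the same strand with AC021066.1, and how reads there were assigned is not given in the sources used here.

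KRT75, a type II keratin of the companion layer of the hair follicle, had 28, 31 and 19 counts in U2OS siCtrl against 40, 37 and 64 in siINTS11, and the third siINTS11 library was the high one. In U2OS-AsiSI it had 19, 29 and 17 against 48, 47 and 67, with no overlap. It rose by 1.46 on the log2 scale in U2OS-AsiSI (SE 0.21, edgeR adjusted p = 3.1e-07) and by 0.76 in U2OS (SE 0.22, edgeR adjusted p = 0.00292). Without U2OS siINTS11 replicate 3, the U2OS value was 0.47 and no longer past the threshold (edgeR adjusted p = 0.0902).

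KRT16, a type I keratin induced in wounded epidermis, had 24, 23 and 14 counts in U2OS siCtrl against 45, 40 and 56 in siINTS11. In U2OS-AsiSI it had 13, 20 and 17 against 35, 21 and 41, and the groups stood apart once scaled for depth. The rises were 1.12 in U2OS (SE 0.22, edgeR adjusted p = 3.2e-05) and 1.09 in U2OS-AsiSI (SE 0.24, edgeR adjusted p = 0.000223). KRT17, which lies 3542 bases upstream of KRT16 on the same strand and had 636 to 1013 counts per library, did not rise. Of the 50-base words of KRT16, 22.0% occur in transcripts of other genes, above all in a pseudogene, so how its reads were assigned is uncertain.

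**Figure D2:**
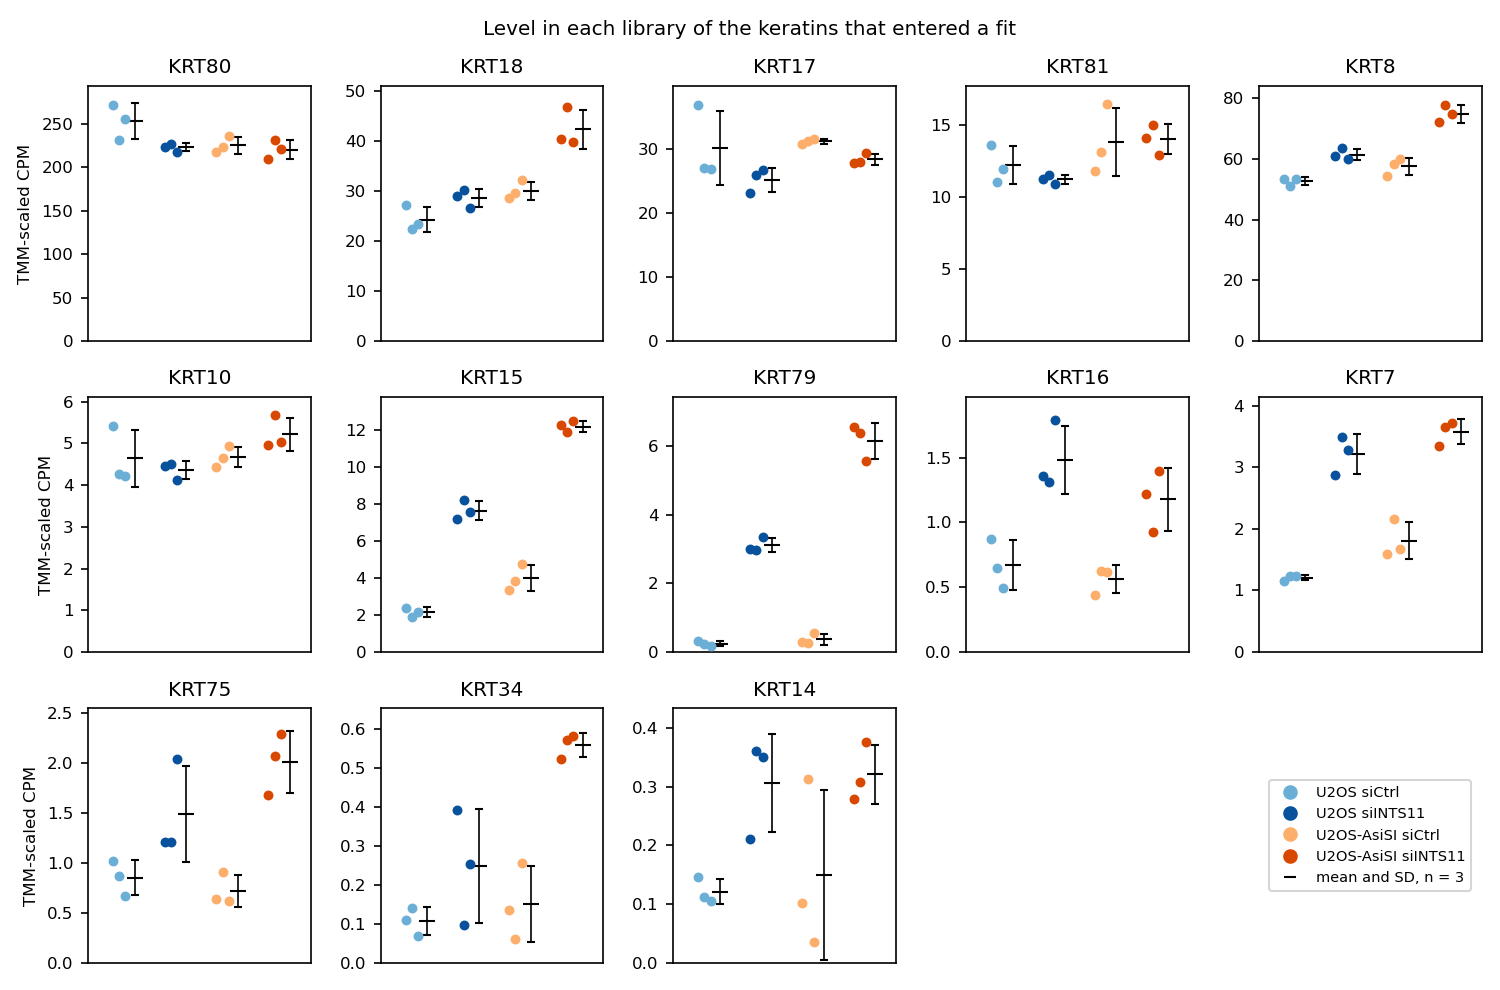
Level in each library of the 13 keratins that entered at least 1 fit (TMM-scaled CPM, axes from 0), with 1 point per library and the mean and SD of each group of 3. For KRT15, KRT79, KRT16, KRT7 and KRT75 the siINTS11 points lie above all siCtrl points of the same line, while for KRT10 and KRT81 the groups overlap or nearly touch.

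Among the 43 near-silent members, KRT34 alone was tested in U2OS-AsiSI and none was in U2OS. KRT34, a type I hair keratin, had 4, 2 and 7 counts in U2OS-AsiSI siCtrl and 15, 13 and 17 in siINTS11, with no overlap. It passed the filter on low counts through its siINTS11 libraries only, so a rise was the one direction it could be called in, and its log2 fold change of 1.90 (SE 0.40) is given as a description with no test. In U2OS it had 3, 5 and 2 counts against 13, 3 and 8, with overlap, and was not tested. KRT14, the basal epidermal type I keratin, had 4, 4 and 3 against 7, 11 and 11 in U2OS and 3, 10 and 1 against 8, 7 and 11 in U2OS-AsiSI. It was not tested within either line.

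In all, 41 members were too low for any comparison, 19 on chromosome 12 and 22 on chromosome 17. Summed over these 41, the U2OS libraries held 9, 7 and 5 counts under siCtrl and 11, 13 and 10 under siINTS11. The U2OS-AsiSI libraries held 7, 8 and 4 under siCtrl and 28, 18 and 23 under siINTS11. The sums were higher in each siINTS11 library than in any siCtrl library of the same line, in raw counts, and stayed under 30 counts in each. Scaled for depth, the groups stood apart in U2OS-AsiSI (0.146 to 0.25 against 0.787 to 0.977 CPM) and overlapped in U2OS (0.176 to 0.328 against 0.319 to 0.425 CPM). Across all tested genes below 0.01 CPM per kb the median log2 fold change was above 0, at 0.46 in U2OS-AsiSI and 0.39 in U2OS. Those genes had passed the filter on low counts, which these 41 members did not, so the sets are unlike. A gene can also pass that filter through its siINTS11 libraries only. With no filter on low counts, KRT14 came out higher in U2OS, at a log2 fold change of 1.28 that is a description with no test. KRT6A, KRT13 and KRT2 came out higher in U2OS-AsiSI, at log2 fold changes of 2.5, 3.02 and 4.54. Their siCtrl counts there were 0, 1 and 1 for KRT6A, 1, 0 and 0 for KRT13, and 0, 0 and 0 for KRT2. A rise was thus the one direction these genes could be called in, and their values are a description with no test. KRT14, KRT6A, KRT13 and KRT2 are named here after their values were seen. KRT6A, KRT13 and KRT2 each rest on at most 20 counts over the 12 libraries, and KRT14 on 80.

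The 6 expressed keratins moved little. In U2OS-AsiSI, 2 were higher and 1 lower, beside 30.7% higher and 37.2% lower among all genes at the expressed level, and their median log2 fold change was 0.09 against -0.02. In U2OS, 2 were higher and 1 lower, beside 28.2% and 36.4%, with medians of -0.13 and -0.03. The 2 that rose in both lines were KRT8 and KRT18, which pair with each other.

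KRT8 stood at 53.4, 51.1 and 53.4 CPM in U2OS siCtrl and 60.9, 63.5 and 59.9 in siINTS11. In U2OS-AsiSI it stood at 54.4, 58.4 and 59.9 against 72.1, 78.0 and 74.8. Both pairs of groups were separate. The log2 fold change was 0.19 in U2OS (SE 0.04, edgeR adjusted p = 0.000164) and 0.39 in U2OS-AsiSI (SE 0.05, edgeR adjusted p = 5.24e-08).

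KRT18 stood at 27.1, 22.3 and 23.3 CPM in U2OS siCtrl against 29, 30.2 and 26.6, and here the groups overlapped, since the first siCtrl library lay above the third siINTS11 library. In U2OS-AsiSI it stood at 28.5, 29.5 and 32.1 against 40.3, 46.8 and 39.8, with no overlap. It rose by 0.21 in U2OS (SE 0.06, edgeR adjusted p = 0.00337) and by 0.49 in U2OS-AsiSI (SE 0.06, edgeR adjusted p = 2.19e-08). KRT8 and KRT18 share 1084 bases on opposite strands. Of their 50-base words, 22.1% and 21.7% occur in other genes' transcripts, above all in a pseudogene of each. The next gene downstream of KRT18 on its strand, EIF4B, was at log2 fold changes of 0.01 and 0.02 (edgeR adjusted p = 0.928 in U2OS-AsiSI and 0.742 in U2OS). The next gene upstream of KRT8 on its strand, AC068888.1, 62929 bases away, rose by 0.89 and 0.93 (edgeR adjusted p = 2.46e-10 and 1.03e-12).

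KRT80, the keratin with the highest level per kb, was 272, 231 and 255 CPM in U2OS siCtrl against 223, 227 and 218 in siINTS11. It fell by 0.21 on the log2 scale in U2OS (SE 0.05, edgeR adjusted p = 9.14e-05), with no overlap. In U2OS-AsiSI it was 217, 223 and 236 CPM against 209, 231 and 221, the groups overlapped and the change of -0.03 did not pass (SE 0.05, edgeR adjusted p = 0.631). With library totals alone the U2OS change was -0.01 (edgeR adjusted p = 0.801) and the U2OS-AsiSI change turned to 0.16 (edgeR adjusted p = 0.00128), so neither the fall nor its absence is independent of the scaling.

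KRT17 was 30.8, 31.2 and 31.5 CPM in U2OS-AsiSI siCtrl against 27.8, 28.0 and 29.3 in siINTS11, a fall of small size that passed the threshold (log2 fold change -0.13, SE 0.05, edgeR adjusted p = 0.0349). The call was lost when any library other than the third siINTS11 library was left out, with edgeR adjusted p from 0.0321 to 0.102 over the 6 fits, and with library totals alone the value was 0.06. In U2OS it was 36.9, 27.0 and 26.8 against 23.2, 25.9 and 26.7 CPM, with the first siCtrl library high. The change there, -0.28 (SE 0.14), did not pass (edgeR adjusted p = 0.111). Without that high library, U2OS siCtrl replicate 1, it was -0.12 and did not pass (edgeR adjusted p = 0.0835). The change passed without U2OS siCtrl replicate 2 (-0.35, edgeR adjusted p = 0.0114) or without U2OS siCtrl replicate 3 (-0.35, edgeR adjusted p = 0.00337). It also passed with median-of-ratios size factors (-0.30, edgeR adjusted p = 0.0196) and with no count filter (-0.29, edgeR adjusted p = 5.11e-06).

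KRT81 and KRT10 did not pass in either line. KRT81 was at 0.03 (SE 0.09, edgeR adjusted p = 0.78) in U2OS-AsiSI and -0.14 (SE 0.08, edgeR adjusted p = 0.104) in U2OS; the latter passed without U2OS siCtrl replicate 2 (-0.21, edgeR adjusted p = 0.0336). KRT10 was at 0.16 (SE 0.11, edgeR adjusted p = 0.198) and -0.11 (SE 0.11, edgeR adjusted p = 0.411). With library totals alone both were called higher in U2OS-AsiSI, at 0.22 (edgeR adjusted p = 0.0439) and 0.35 (edgeR adjusted p = 0.00832). Of the 50-base words of KRT81, 44.6% are shared with other genes, above all its neighbour KRT86.

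**Figure D3:**
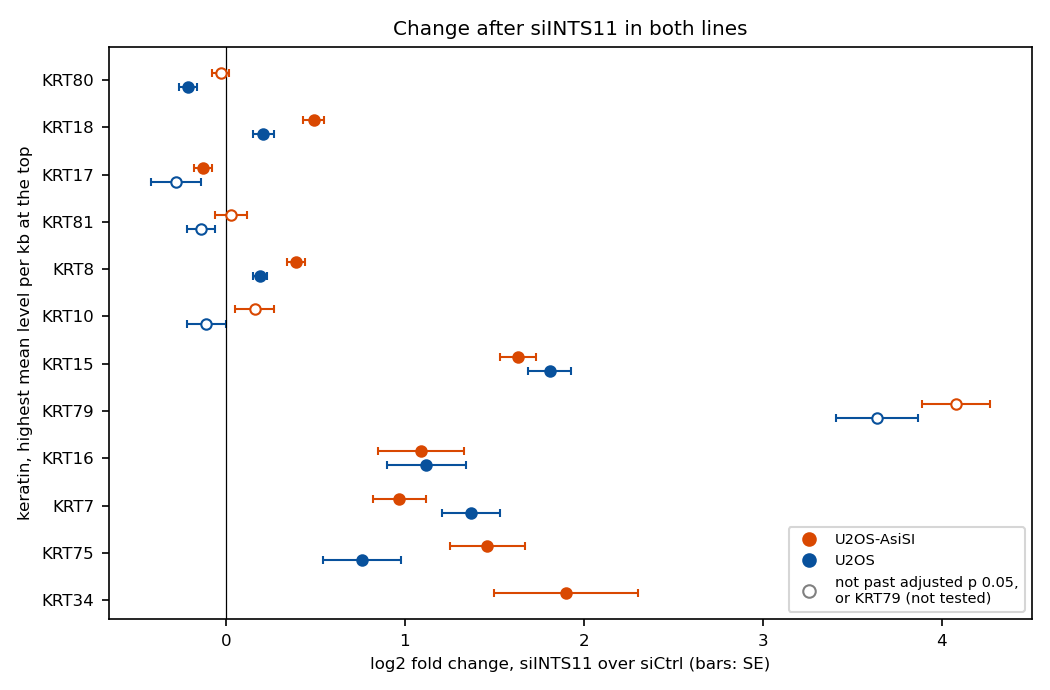
Log2 fold change of siINTS11 over siCtrl in U2OS-AsiSI and U2OS for each keratin that entered the fit, with SE bars, ordered by mean level per kb with the highest at the top; open symbols did not pass an adjusted p of 0.05 or, for KRT79, were not tested. The upper 6, the expressed keratins, lie between -0.28 and 0.49, and KRT15, KRT16, KRT7 and KRT75 between 0.76 and 1.81. KRT79 (3.64 and 4.08) and KRT34 (1.9) are a description with no test, although the KRT34 symbol is filled.

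Over the whole family, 7 keratins were higher and 1 lower of 11 tested in U2OS-AsiSI, where 35.4% of all genes were higher and 32.6% lower (68% in either direction). Without KRT34, which only siINTS11 libraries brought past the filter, 6 were higher and 1 lower of 10. With such genes left out, 6111 of all genes were higher and 6644 lower of 18647 in U2OS-AsiSI. The like counts in U2OS were 5978 and 6693 of 18851, where no keratin was left out. In U2OS, 6 were higher and 1 lower of 10 tested, where 34.5% of all genes were higher and 32.4% lower (66.9% in either direction). By cluster, chromosome 12 held 4 higher and 0 lower of 6 tested in U2OS-AsiSI and chromosome 17 held 2 higher and 1 lower of 4 without KRT34. In U2OS the counts were 4 higher and 1 lower of 6 on chromosome 12, and 2 higher and 0 lower of 4 on chromosome 17. The called genes were thus spread over both clusters, and the sets tested are small. Against the 10th to 90th percentile of all tested genes at a like level, KRT15 lay above in both lines, since the 90th percentile between 0.3 and 1 CPM per kb was 0.77 in U2OS-AsiSI and 0.76 in U2OS. Between 0.1 and 0.3 CPM per kb the 90th percentile was 1.16 in U2OS-AsiSI and 1.2 in U2OS. KRT75 lay above it in U2OS-AsiSI and KRT7 in U2OS, while KRT16 in both lines, KRT7 in U2OS-AsiSI and KRT75 in U2OS lay inside. By their siCtrl levels KRT7 (0.0769) and KRT75 (0.0766) belong to the bin of 0.03 to 0.1. Its 90th percentile was 1.36 in U2OS-AsiSI and 1.38 in U2OS. There KRT75 (1.46) would stay above in U2OS-AsiSI, but KRT7 (1.37) would lie inside in U2OS, so its place depends on the bin. KRT80, at 10 CPM per kb on the edge of its bin of 10 to 30, lay below the 10th percentile of that bin in both lines (0.12 in U2OS-AsiSI and -0.13 in U2OS). In the adjoining bin of 3 to 10 the 10th percentiles were -0.2 and -0.23. There KRT80 (-0.03 and -0.21) would lie inside in both lines, so its place depends on the bin edge. KRT17 lay below the 10th percentile between 3 and 10 CPM per kb in U2OS (-0.23) and inside in U2OS-AsiSI. Without U2OS siCtrl replicate 1, the KRT17 change in U2OS was -0.12, above that limit. KRT8, KRT18, KRT81 and KRT10 lay inside in both lines, and KRT34 and KRT79 were not placed, given how they entered.

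**Figure D4:**
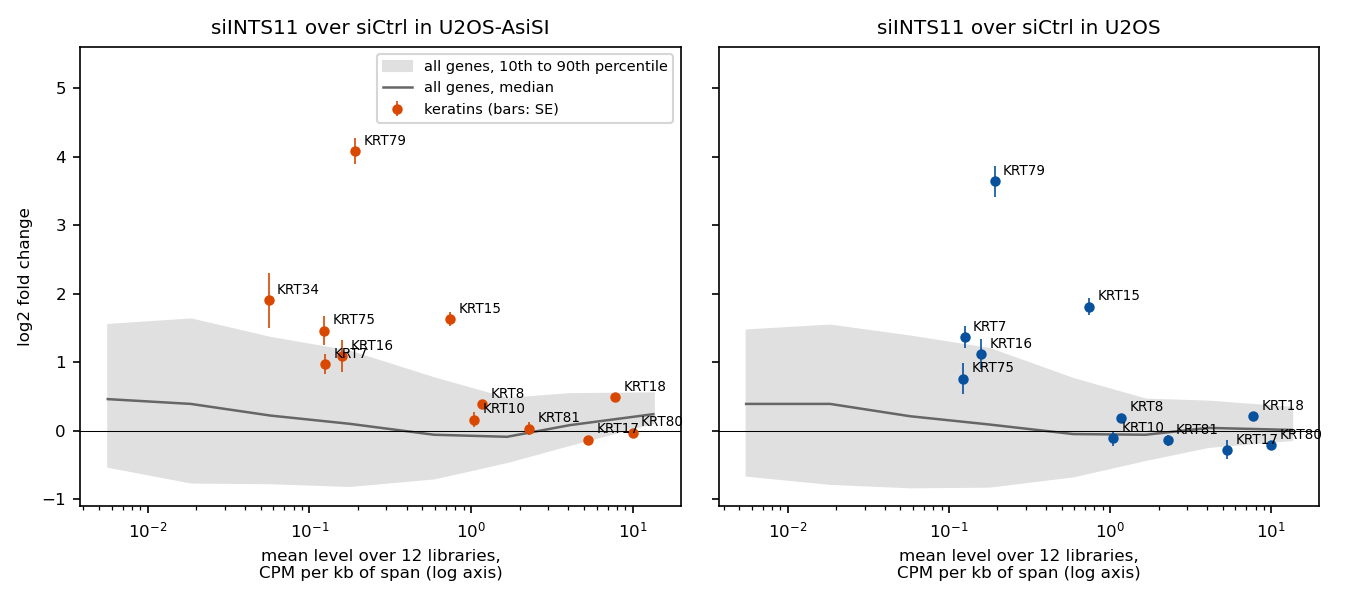
Log2 fold change of siINTS11 over siCtrl against mean level (CPM per kb of span, log axis) for the keratins in U2OS-AsiSI (left) and U2OS (right), with SE bars, over the median (line) and the 10th to 90th percentile (grey) of all tested genes in bins of level. KRT15 lies above the grey band in both lines, and the band is wider at low levels. KRT80, on a bin edge, lies below the band as drawn but would lie inside the bin of 3 to 10 CPM per kb. KRT79, whose values chose the family, and KRT34 are drawn as a description.

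Reads were dense over some expressed keratins, at means of 0.296 per base of span for KRT80, 0.226 for KRT18 and 0.157 for KRT17. Within groups, counts of genes at 0.2 to 0.4 reads per base grew less than in proportion to the library total (median slope of log count on log total 0.54 over 250 genes), against 1.04 over genes at 0.01 to 0.1. The U2OS-AsiSI siINTS11 libraries were the smallest, with 20704611 to 26579035 counts against 28299433 to 32981069 in their siCtrl group. All genes at 10 to 30 CPM per kb had a median log2 fold change of 0.24 in U2OS-AsiSI and 0.01 in U2OS. The part of read density in the values of KRT80, KRT18 and KRT17 was not tested.

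The difference between the 2 siINTS11 effects, tested as an interaction over all 12 libraries, was past the threshold for 0 of 12 keratins by edgeR and for 0 by DESeq2, beside 3.87% of all genes by edgeR. The smallest p-values, none past the threshold, were those of KRT18 (0.25, edgeR adjusted p = 0.157), KRT8 (0.16, edgeR adjusted p = 0.171) and KRT80 (0.15, edgeR adjusted p = 0.222). Each of these had the larger value in U2OS-AsiSI. An adjusted p above the threshold does not show that the 2 effects were alike.

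Under siCtrl, the 2 lines already differed in some keratins. Of 10 tested, 4 were higher and 1 lower in U2OS-AsiSI, where 17.8% of all genes were higher and 17.2% lower (34.9% in either direction). KRT15 was at 2.40, 1.89 and 2.19 CPM in U2OS and 3.36, 3.85 and 4.75 in U2OS-AsiSI, with no overlap, a difference of 0.89 on the log2 scale (SE 0.15, edgeR adjusted p = 1.42e-05). KRT18 differed by 0.32 (SE 0.07, edgeR adjusted p = 0.000372), KRT7 by 0.58 (SE 0.18, edgeR adjusted p = 0.013) and KRT8 by 0.13 (SE 0.05, edgeR adjusted p = 0.0322), all higher in U2OS-AsiSI. KRT80 was lower there (-0.16 on the log2 scale, SE 0.05, edgeR adjusted p = 0.0102). The KRT7 call was lost without U2OS-AsiSI siCtrl replicate 2 (0.43, edgeR adjusted p = 0.135) and the KRT80 call without U2OS siCtrl replicate 1 (-0.10, edgeR adjusted p = 0.112). The KRT8 call was lost without U2OS siCtrl replicate 2, U2OS-AsiSI siCtrl replicate 2 or U2OS-AsiSI siCtrl replicate 3 (edgeR adjusted p 0.127, 0.112 and 0.134).

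Several keratins share their span with another gene. KRT80 lies wholly inside LINC00592 on the other strand, which rose by 1.44 in both lines (edgeR adjusted p = 7.62e-16 and 7.68e-23) while KRT80 did not rise. LINC00592 had 303 to 1262 counts per library, fewer than the 5245 to 8188 of KRT80 in each, although its span contains that of KRT80, which a count of whole spans blind to strand would not give. KRT10 overlaps TMEM99 on the other strand. KRT81 overlaps AC021066.1 on the other strand, a gene at 12:52249300 to 52309163 whose coordinates are those of KRT86 in GENCODE 29. It carries no KRT symbol in these tables and is no member. Named after its values were seen, AC021066.1 had 93, 116 and 93 counts in U2OS siCtrl against 345, 324 and 288 in siINTS11, and 81, 108 and 107 against 239, 215 and 284 in U2OS-AsiSI. It rose by 1.57 and 1.46 (edgeR adjusted p = 1.01e-17 and 1.05e-12) and, as noted, shares bases with KRT7.

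Other genes of the filament system and of cornified epithelium gave a mixed picture. Counts here leave out genes that passed the filter only through their siINTS11 libraries. Counted the same way over all genes, 6111 were higher and 6644 lower of 18647 in U2OS-AsiSI. In U2OS, 5978 were higher and 6693 lower of 18851. Of 13 non-keratin intermediate filament genes, 5 were higher and 0 lower of 7 in U2OS-AsiSI, with BFSP1, a lens filament gene, at 1.22 and NES (nestin) at 0.94, and 3 and 0 of 7 in U2OS. Of 20 desmosome, hemidesmosome and plakin genes, which anchor keratin filaments, 6 were higher and 5 lower of 13 in U2OS-AsiSI, and 5 and 6 of 12 in U2OS. Among them COL17A1 rose by 1.5 in U2OS-AsiSI, while PKP2 and PKP4 were at -0.61 and -0.54. Of 15 cornified envelope genes, 1 was higher (TGM5, at 1.14) and 1 lower of 4 in U2OS-AsiSI, and 1 and 2 of 4 in U2OS. None of 112 keratin-associated protein genes had reads enough to be tested. Of 136 keratin pseudogenes, 2 were higher (KRT8P12 at 0.77 and KRT18P55 at 1.09) and 0 lower of 5 in U2OS-AsiSI, and 2 and 1 of 5 in U2OS. GFAP, IVL, LOR and KRT18P59 entered through their siINTS11 libraries only, with log2 fold changes of 2.27, 1.02, 1.04 and 1.03 in U2OS-AsiSI that are given as a description. The other named genes of this paragraph passed the edgeR test in U2OS-AsiSI at an adjusted p under 0.05.

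The markers of the labelled cell type were partly present. VIM, the vimentin gene, stood at 15.5 CPM per kb, above every keratin, while COL1A2 and TWIST1 were near 0. Of 9 simple epithelium markers, CLDN7 had 0 counts in all libraries and OVOL1 at most 1. The summed level of the 9 was 19.5 to 22.0 CPM in U2OS siCtrl and 33.0 to 33.9 in siINTS11, and 18.1 to 21.4 against 29.5 to 30.6 in U2OS-AsiSI. CLDN4 was the largest part of the rise (log2 fold change 0.94 and 1.01). EHF rose by 1.59 and 1.08, and EPCAM by 0.42 in U2OS but did not pass in U2OS-AsiSI (0.24, edgeR adjusted p = 0.0736). Counted as in the lists above, 4 were higher and 0 lower of 5 in U2OS, and 2 and 0 of 5 in U2OS-AsiSI. The 9 stratified epithelium markers, of which 3 are keratins with at most 11 counts per library (KRT1, KRT5, KRT14) and 1 is KRT10, summed to 27.5 to 30.1 against 30.8 to 31.9 in U2OS and 30 to 32.8 against 34.7 to 39.8 in U2OS-AsiSI. Among them SFN was at log2 fold changes of 0.28 in U2OS and 0.55 in U2OS-AsiSI, and PERP at -0.3 and -0.43. By the same count, 1 was higher and 1 lower of 4 in each line. The 12 osteosarcoma or mesenchymal markers summed to 2120 to 2230 against 1710 to 1810 and 2000 to 2080 against 1670 to 1720. The members of that list went both ways, counted as in the lists above, with 2 higher and 5 lower of 9 in U2OS and 3 and 5 of 9 in U2OS-AsiSI. RUNX2 fell by 0.84 on the log2 scale in U2OS and 1.07 in U2OS-AsiSI, and CDH2 fell by 0.59 and 0.56, while ALPL rose by 1.47 and 1.31. In the siINTS11 libraries the epithelial sums were thus higher and the mesenchymal sum lower. Whether these sums have a part in the keratin changes was not tested.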

How the data were processed

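Nascent RNA (TT-seq) was measured in 12 libraries, grouped and numbered by their titles. The authors deposited raw read counts per gene over the whole gene span, with columns laid out as featureCounts writes them, per the file headers. The submitters' processing notes name Trimmomatic 0.36, STAR 2.7, deepTools and featureCounts, and the build hg38. The strand setting, the treatment of duplicates and of reads with several matches are not given in the sources used here. A yeast spike-in is described in the labels' protocols and was not used here.

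The whole count tables were fitted with edgeR 4.0.16 (R 4.3.3): low counts were removed by filterByExpr, libraries were scaled by TMM, and a robust, two-sided quasi-likelihood test was run. Benjamini-Hochberg adjustment covered all genes tested, with a threshold of 0.05. Each of the 4 comparisons used only its own groups, and the interaction used all 12 libraries. The script was tested on simulated data. The SE of a log2 fold change is its size divided by the square root of the F statistic. Levels and classes used TMM over all 12 libraries. Alternatives were other size factors, other filters, DESeq2 1.42.0, thinned counts, a replicate block and each library left out. Gene positions were compared with GENCODE 29, in which all 54 symbols were found, 24 with the same coordinates. Promoters came from RefSeq (GRCh38.p14).

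The members and the other lists were chosen with earlier results of these data known. Named keratins are KRT79, every expressed member, every member past the threshold in a comparison and those beside a class limit; of each other list, up to 3 members with the smallest adjusted p in U2OS-AsiSI are named. Markers that define the cell type or were near 0, neighbours on the same strand and overlapping genes were named in addition.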

Additional observations from a re-analysis of the deposited data

How the results depend on the processing

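Across the alternatives, 100 counts stayed within 1.5 times the value given and 19 moved further. Of the values of single keratins, 377 kept their direction and side of the threshold, 19 lost the call, 9 gained one and 10 changed sign. At a mean count of at least 50, 4 keratins of 8 tested were called in U2OS-AsiSI, beside 11180 of 15469 genes. Fewer keratins were tested there and KRT17 lost its call (-0.08). The interaction gave 1 keratin of 33 with no filter (KRT18, 0.30), beside 670 of 37527 genes. At a mean count of at least 50 it gave 1 of 8 (KRT8, 0.23), beside 658 of 15617 genes. Between the lines under siCtrl, DESeq2 called 3 keratins, and leaving out a library gave 3 to 6. For all genes, the interaction called 832, against 447 with median-of-ratios size factors, 423 with DESeq2, 530 with thinned counts and 286 to 946 with a library left out; the cause was not tested. With no length term, 10 keratins counted as expressed.

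Signs changed with library totals alone for KRT80 (0.16) and KRT17 (0.06) in U2OS-AsiSI and for KRT81 (0.05) and KRT10 (0.09) in U2OS, and at a mean count of at least 50 for KRT80 in U2OS-AsiSI (0.03). With a library left out, KRT81 ranged from -0.06 to 0.16 and KRT80 from -0.06 to 0.01 in U2OS-AsiSI, and KRT10 from -0.16 to 0.02 in U2OS. None of these 3 was called in those fits. The KRT81 values without U2OS-AsiSI siCtrl replicates 1 and 2 and without siINTS11 replicate 2 were -0.06, -0.01 and -0.02.

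Deviations of same-numbered libraries correlated at 0.223, -0.005 and 0.007 in U2OS-AsiSI and at -0.022, -0.077 and 0.065 in U2OS. Differently numbered libraries correlated at -0.162 to 0.152 in U2OS-AsiSI and -0.065 to 0.087 in U2OS. With 3 values per line, this cannot decide whether the numbers pair the libraries. With the number as a replicate block, 8 keratins of 11 were called in U2OS-AsiSI, KRT34 among them, beside 14172 of 20441 genes. In U2OS 7 of 10 were called, beside 13700 of 20687 genes, and in the interaction 0 of 12, beside 1281 of 21521. In the siCtrl comparison 4 keratins were called, where the main fit called 34.9% of all genes.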
